A study of Homo sapiens with 6 samples.

Results

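The expression of PAX5, of its 2 closest paralogs PAX2 and PAX8, and of 6 genes known as B-lineage targets or partners of PAX5 (CD79A, CD79B, BLK, BLNK, EBF1 and BACH2) was examined in C4-2B and RC4-2B cells by RNAseq. These 9 genes were found by their symbols among the 58735 genes of the deposited tables. PAX5 was chosen by its higher read counts in RC4-2B, so its own difference between the cell lines is described here without a test, while the other 8 genes were taken for their relation to PAX5. C4-2B is an established prostate cancer line that grows in castrated hosts. RC4-2B is 1 subclone derived from it over 4 months by 72 h cycles of the taxane cabazitaxel (CBZ), with doses raised from 0.1 nM up to 20 nM. For each line 3 biological replicates were sequenced, without a drug named for the culture before harvest, in medium with 10% fetal bovine serum according to the sample labels, while the study's methods name 10% CSS beside it, so the serum present before harvest is uncertain. All 3 RC4-2B libraries come from the same subclone, so that the effect of selection and the properties of that subclone cannot be told apart.

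PAX5 encodes a transcription factor with a DNA-binding paired domain. In B-cell development it commits progenitors to the B lineage, activates genes of the B-cell receptor and its signalling, and represses genes of other blood lineages and of plasma cells. PAX2, PAX5 and PAX8 form 1 subfamily of the paired box genes. Outside the B lineage, PAX5 acts together with PAX2 at the midbrain-hindbrain boundary of the embryo, and PAX2 and PAX8 act in the developing kidney, with PAX8 also needed in the thyroid.

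The libraries held between 15707134 and 18052517 gene counts, at which 3 counts, taken as the floor of detection, correspond to 0.170 to 0.188 CPM (counts divided by the TMM-scaled library total, in the usual CPM scaling). Floors and count intervals cover counting error only. Across 9610 genes with a mean level above about 10 CPM, log2 differences between pairs of C4-2B libraries had a standard deviation of 0.13 to 0.19. RC4-2B replicate 2 stood apart, with 0.59 and 0.52 against replicates 1 and 3, which differed from each other by 0.22. Its difference from replicate 1 followed transcript GC content across genes, with a Spearman correlation of -0.76 as a description. Weaker correlations were present elsewhere, at -0.42, -0.35 and -0.33 for RC4-2B replicate 3 minus the C4-2B libraries. For RC4-2B replicate 1 they were -0.23, -0.07 and -0.03, and C4-2B replicate 2 minus replicate 1 gave -0.32. Leaving out RC4-2B replicate 2 therefore does not remove every GC trend. Several, though not all, results below are given with and without RC4-2B replicate 2. All 8 prostate luminal markers examined were detected, among them KRT8 and FOLH1, while KLK3 and TMPRSS2, both androgen-regulated, were lower in RC4-2B (log2 fold change -4.33 and -1.08, edgeR adjusted p = 0.000154 and 0.019), the call of TMPRSS2 being lost without any 1 of the C4-2B libraries or RC4-2B replicate 3 (adjusted p 0.0538 to 0.119).

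PAX5 (ENSG00000196092), on the minus strand of chromosome 9 from 36833275 to 37034185 in GRCh38, had 15, 10 and 21 counts in the C4-2B libraries, in replicate order here and throughout, against 193, 221 and 198 counts in RC4-2B. Every RC4-2B library thus lay far above every C4-2B library, and the C4-2B libraries were above the floor of 3 counts. The level rose from 0.886 ± 0.315 to 12.1 ± 0.484 CPM (SD, n = 3), which is 13.6-fold, or 3.76 on the log2 scale with a standard error of 0.26. The 3 RC4-2B libraries differed little, with a coefficient of variation of 4% where counting alone would give about 7%, and replicate 2 lay within this range at 12.6 CPM. Without RC4-2B replicate 2 the log2 fold change was 3.73. Of the genes that overlap the span of PAX5 in the deposited table, 2 antisense genes and 2 miRNA genes, none had a count in any library. The files give 1 value per gene, so the promoter and the transcript forms of PAX5 in use were not resolved.

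The 5′ regions of PAX5, of BLNK, the other member with higher values in all RC4-2B libraries, and of CD79A, a textbook target of PAX5 that stayed near the floor, are shown with CpG dinucleotides in capitals. Each runs from 250 bases before to 50 bases after the RefSeq start of the gene (GRCh38.p14), written 5′ to 3′ on the strand of the gene. PAX5 lies at chr9:37034219-37034518 (minus strand), BLNK at chr10:96271520-96271819 (minus strand) and CD79A at chr19:41877029-41877328 (plus strand).
PAX5: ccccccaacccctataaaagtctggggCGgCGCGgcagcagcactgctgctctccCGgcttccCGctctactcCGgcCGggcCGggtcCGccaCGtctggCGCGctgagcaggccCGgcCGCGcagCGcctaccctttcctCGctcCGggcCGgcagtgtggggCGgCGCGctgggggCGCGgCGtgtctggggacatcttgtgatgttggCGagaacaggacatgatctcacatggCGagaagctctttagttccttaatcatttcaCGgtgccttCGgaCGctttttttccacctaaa
BLNK: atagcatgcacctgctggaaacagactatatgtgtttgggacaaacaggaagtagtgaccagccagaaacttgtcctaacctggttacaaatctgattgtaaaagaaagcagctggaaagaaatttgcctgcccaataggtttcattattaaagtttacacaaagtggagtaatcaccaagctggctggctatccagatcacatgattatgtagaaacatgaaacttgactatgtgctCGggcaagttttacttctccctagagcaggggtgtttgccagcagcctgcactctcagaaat
CD79A: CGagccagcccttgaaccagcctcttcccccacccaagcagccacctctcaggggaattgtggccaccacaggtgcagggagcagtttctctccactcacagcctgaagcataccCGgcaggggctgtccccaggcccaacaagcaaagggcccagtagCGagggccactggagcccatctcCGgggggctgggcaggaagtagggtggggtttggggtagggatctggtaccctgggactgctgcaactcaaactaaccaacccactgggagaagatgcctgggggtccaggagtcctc

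The PAX5 region held 30 CpG dinucleotides, more than 77.6% of the 35116 promoter regions of the same length in the table. The BLNK region held 1 and the CD79A region held 4, above 3.96% and 24.5% of promoter regions, so the PAX5 start is CpG-rich and the others are CpG-poor. The letters GCGTGAC, a core of PAX5 binding sites, were searched on both strands. They were present in 2.52% of all promoter regions and in none of the 8 regions available for 7 of the 9 genes, which says only that these letters are not in these windows.

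**Figure D1:**
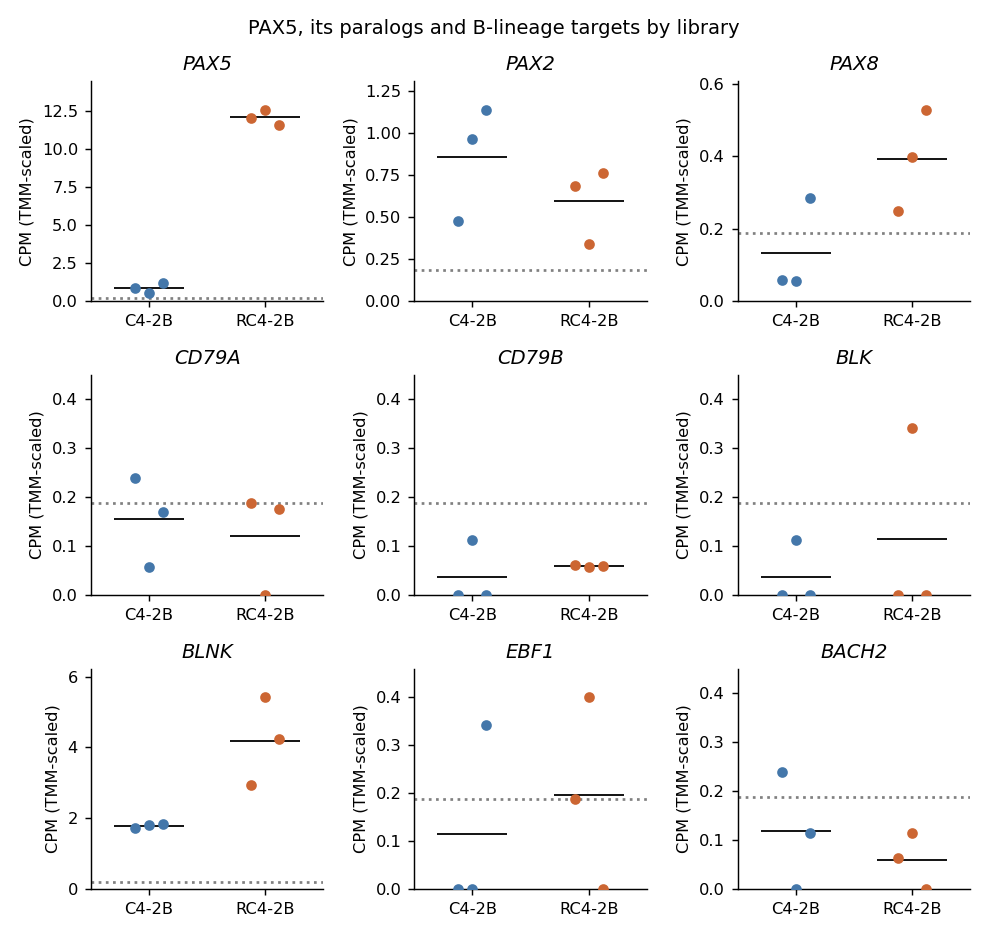
CPM of the 9 genes in 3 libraries of C4-2B and 3 of RC4-2B, 1 panel per gene with its own axis from 0, with points for libraries in replicate order, bars for the mean and a dotted line at 0.188 CPM for the floor of 3 counts. PAX5 and BLNK are above C4-2B in all RC4-2B libraries, PAX2 overlaps between the cell lines, and the remaining genes lie around the floor.

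To see whether the paralogs followed PAX5, PAX2 and PAX8 were examined next. PAX2, on chromosome 10, had 8, 17 and 20 counts in C4-2B against 11, 6 and 13 counts in RC4-2B. The groups overlapped, and the mean level (± SD, n = 3) was 0.860 ± 0.342 CPM for C4-2B against 0.598 ± 0.225 CPM for RC4-2B. The log2 fold change was -0.53 (standard error 0.46, 95% interval -1.59 to 0.53), and the difference did not pass the threshold (edgeR adjusted p = 0.496). PAX8, on chromosome 2, was too low to enter the test, with 1, 1 and 5 counts in C4-2B against 4, 7 and 9 counts in RC4-2B. C4-2B replicate 3 lay above RC4-2B replicate 1 on the CPM scale, so the groups overlapped here as well. Over the summed libraries PAX8 stood at 0.135 CPM (exact 95% Poisson interval 0.0541 to 0.277) in C4-2B and at 0.396 CPM (0.242 to 0.611) in RC4-2B, intervals that take no account of the spread between libraries. When the filter on low counts was removed, PAX8 had a log2 fold change of 1.499 and an adjusted p of 0.379 in edgeR's test. PAX8-AS1, which lies antisense to PAX8 and shares 1651 exonic bases with it in GENCODE release 44, had 2 counts in RC4-2B replicate 3 and none elsewhere, and strand use in the counting is not given in the sources used here.

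Levels of the whole PAX family were compared per gene length, as FPKM (fragments per kilobase of gene, scaled to the library total). In C4-2B the highest levels were those of PAX9 (1.87 ± 0.11 FPKM, SD, n = 3) and PAX1 (1.79 ± 0.07), both best known from skeletal and pharyngeal development, whose libraries overlapped. PAX2 (0.123 ± 0.0496 FPKM) and PAX5 (0.0851 ± 0.0307 FPKM) followed, also with overlapping libraries, and PAX8 was lowest of the detected genes at 0.0162 ± 0.0160 FPKM. In RC4-2B, PAX5 reached 1.18 ± 0.07 FPKM, below PAX1 (2.56 ± 0.40) and PAX9 (2.30 ± 0.43) in every library and above PAX2 (0.0868 ± 0.0314) and PAX8 (0.0484 ± 0.0173). The share of PAX5 in the summed FPKM of the family was 2.37%, 1.35% and 2.86% in the C4-2B libraries, against 19.4%, 18.5% and 19.6% in RC4-2B. Despite its rise PAX5 remained a gene of modest level, above 25.7% of the 15054 tested genes in RC4-2B, compared with 1.36% in C4-2B. PAX3, PAX4 and PAX7 had no counts and PAX6 had 1 count in all libraries together. PAX1 had 187, 213 and 208 counts in C4-2B against 296, 302 and 232 in RC4-2B, and PAX9 had 198, 236 and 223 in C4-2B against 200, 306 and 266 in RC4-2B. PAX1 had a log2 fold change of 0.49 ± 0.16 (SE, adjusted p = 0.15) and PAX9 one of 0.27 ± 0.17 (SE, adjusted p = 0.353), and neither passed the threshold of edgeR's test. With a GC offset, where 7.62% of all genes were called, PAX1 passed it at a log2 fold change of 0.56 (edgeR adjusted p = 0.0445), but not with the replicate block added (0.0572).

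**Figure D2:**
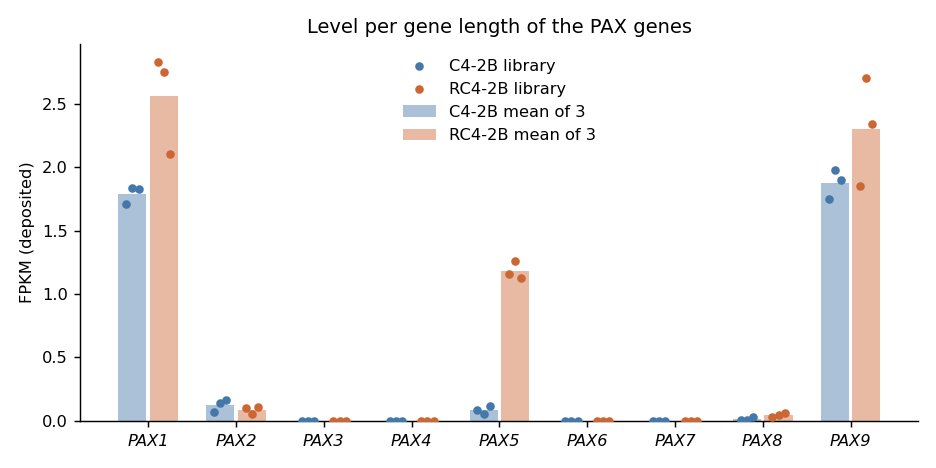
Deposited FPKM of the 9 PAX genes, with bars for the mean of 3 libraries and points for single libraries of C4-2B and RC4-2B. PAX5 goes from 0.0851 to 1.18 FPKM and becomes the third PAX gene by level, below PAX1 and PAX9.

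The B-lineage genes were then examined by their roles. CD79A and CD79B, which encode the signalling subunits of the B-cell receptor, were close to the floor in both cell lines. CD79A had 4, 1 and 3 counts in C4-2B against 3, 0 and 3 counts in RC4-2B. CD79B had 0, 2 and 0 counts in C4-2B against 1 count in each RC4-2B library. Both groups overlapped for CD79A and for CD79B, and the upper ends of the exact 95% Poisson intervals over the summed RC4-2B libraries were 0.258 CPM for CD79A and 0.173 CPM for CD79B.

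The Src-family kinase BLK, which is prominent in B cells, had 2 counts in C4-2B replicate 2 and 6 counts in RC4-2B replicate 2, and 0 counts in the other 4 libraries. EBF1, a transcription factor that acts upstream of PAX5 and is in turn maintained by it, had 6 counts in C4-2B replicate 3 alone, and 3, 7 and 0 counts in RC4-2B. BACH2, a repressor that holds activated B cells back from plasma cell differentiation, had 4, 0 and 2 counts in C4-2B against 1, 2 and 0 counts in RC4-2B. In none of these genes were the libraries of the cell lines separated. Over the summed RC4-2B libraries the upper ends of the exact 95% Poisson intervals were 0.258 CPM for BLK, 0.364 CPM for EBF1 and 0.173 CPM for BACH2, far below the PAX5 level, while small differences at these counts were not detectable at this depth. In edgeR's test without a filter on low counts their adjusted p-values were 0.636 for BLK, 0.747 for EBF1, 0.743 for BACH2, 0.89 for CD79A and 0.883 for CD79B.

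BLNK stood higher than the other targets in both cell lines. It encodes the adaptor that links the kinase SYK to phospholipase C gamma in B-cell receptor signalling, and lies on the minus strand of chromosome 10 from 96191702 to 96271587. Its counts were 29, 32 and 32 in C4-2B against 47, 95 and 72 in RC4-2B, so that all RC4-2B libraries were above all C4-2B libraries. Such separation was also seen for other genes examined here, such as PAX1 and NEDD9, and in the opposite direction for WT1 and LEF1. Its share over all tested genes was not counted. The mean BLNK level (± SD, n = 3) was 1.79 ± 0.05 CPM for C4-2B against 4.20 ± 1.24 CPM for RC4-2B. This gives a log2 fold change of 1.23 ± 0.28 (SE, 95% interval 0.60 to 1.86). The adjusted p was 0.0632 in edgeR's quasi-likelihood test over all tested genes, so BLNK did not pass the threshold of 0.05. The highest BLNK value, 5.42 CPM, belonged to RC4-2B replicate 2, and the BLNK transcript has a low GC content of 41.9%. Without this library the log2 fold change was 1.00 and the adjusted p 0.0253.

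Of the 9 genes, 3 (PAX5, PAX2 and BLNK) passed the filter on low counts, and of the 8 without PAX5, 0 had an adjusted p under 0.05 in edgeR's test, with 1 (BLNK) at an unadjusted p under 0.05. Among all 15054 tested genes 1.98% were called in either direction and 21.4% had an unadjusted p under 0.05. BLNK was called by DESeq2, the tool of the study's methods (adjusted p = 0.0161), where 5.93% of all genes were called. It was also called in edgeR without a filter (4.29% of genes called), with a GC offset (7.62%), with the GC offset and a replicate block (8.01%), without RC4-2B replicate 1 (3.07%), without RC4-2B replicate 2 (12.5%) and with the GC offset without RC4-2B replicate 2 (13.3%). These fits called between 1.55 and 6.72 times the share of genes called with all libraries. With a C4-2B library left out, or RC4-2B replicate 3, the adjusted p of BLNK lay between 0.163 and 0.285. Two-sided exact permutation tests of the CPM values gave p = 0.1 for BLNK, the smallest value that 3 libraries against 3 allow, and between 0.2 and 1 for the other 7 genes. BLNK overlaps ZNF518A, a zinc finger gene on the opposite strand, with 364 shared exonic bases in GENCODE release 44. ZNF518A had 416, 500 and 567 counts in C4-2B against 547, 828 and 622 in RC4-2B (log2 fold change 0.47, adjusted p = 0.172 in edgeR's test). The part of shared reads in the BLNK values was not tested.

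The wider set of 28 genes that PAX5 is known to activate in B cells, which includes the 6 targets above, was largely too low to test. Of these genes 9 were tested, 13 were at or under 3 counts in every library, and 8 of those had no count at all, among them IRF4, IRF8 and FCER2. None of the 9 tested genes passed the threshold in edgeR's test (1.98% of all genes called). Of the 9, 4 had an unadjusted p under 0.05 (against 21.4% of all tested genes). DESeq2 called 2, BLNK and NEDD9 (5.93% of all genes called). The median log2 fold change of the 9 was -0.03, compared with 0.01 over all tested genes, and 4 of the 9 were above 0. Those at an unadjusted p under 0.05, named after their values were seen, were BLNK, NEDD9, IKZF3 and LEF1. NEDD9, an adhesion scaffold protein, averaged 7.31 ± 0.91 CPM (SD, n = 3) for C4-2B against 12.2 ± 1.92 CPM for RC4-2B, with a log2 fold change of 0.73 and an adjusted p of 0.0836, and 0.0252 without RC4-2B replicate 2. IKZF3, which encodes the lymphoid factor Aiolos, was at 9.66 ± 1.19 and 15.3 ± 4.46 CPM, with overlapping libraries (log2 fold change 0.66, adjusted p = 0.174). LEF1, a nuclear effector of WNT signalling, had the opposite sign, at 2.89 ± 0.34 CPM for C4-2B against 1.34 ± 0.50 CPM for RC4-2B (log2 fold change -1.10, adjusted p = 0.115, and 0.0114 without RC4-2B replicate 2, where 12.5% of all genes were called).

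In the list of 11 genes that PAX5 represses in B cells, 4 were tested and 3 never exceeded 3 counts. None of the 4 passed the threshold in edgeR's test, and 2 had an unadjusted p under 0.05 (against 21.4% of all tested genes). DESeq2 called 0 of the 4 (5.93% of all genes). Their median log2 fold change was -0.18. SDC1, the plasma cell surface proteoglycan that epithelia also express, averaged 84.7 ± 5.23 CPM (SD, n = 3) for C4-2B against 56.4 ± 20.0 CPM for RC4-2B, with a log2 fold change of -0.59 and an adjusted p of 0.221. XBP1, a factor of the unfolded protein response and of plasma cell secretion, was at 226 ± 11.2 and 176 ± 17.2 CPM (log2 fold change -0.36, adjusted p = 0.128). Without RC4-2B replicate 2 their adjusted p-values were 0.03 and 0.0038, at log2 fold changes of -0.32 and -0.43, in a fit that called 12.5% of all genes. NOTCH1, at 98.5 ± 13.1 and 98.4 ± 21.0 CPM, had a log2 fold change of -0.0012 with a 95% interval of -0.41 to 0.41. This value depended on the GC offset, with which NOTCH1 had a log2 fold change of 0.40 (adjusted p = 0.0977 in edgeR), and 0.41 with the replicate block as well (adjusted p = 0.0389). Without RC4-2B replicate 2 it was 0.17 (adjusted p = 0.321). CSF1R and FLT3, myeloid and progenitor receptors, had at most 5 counts in a library.

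**Figure D3:**
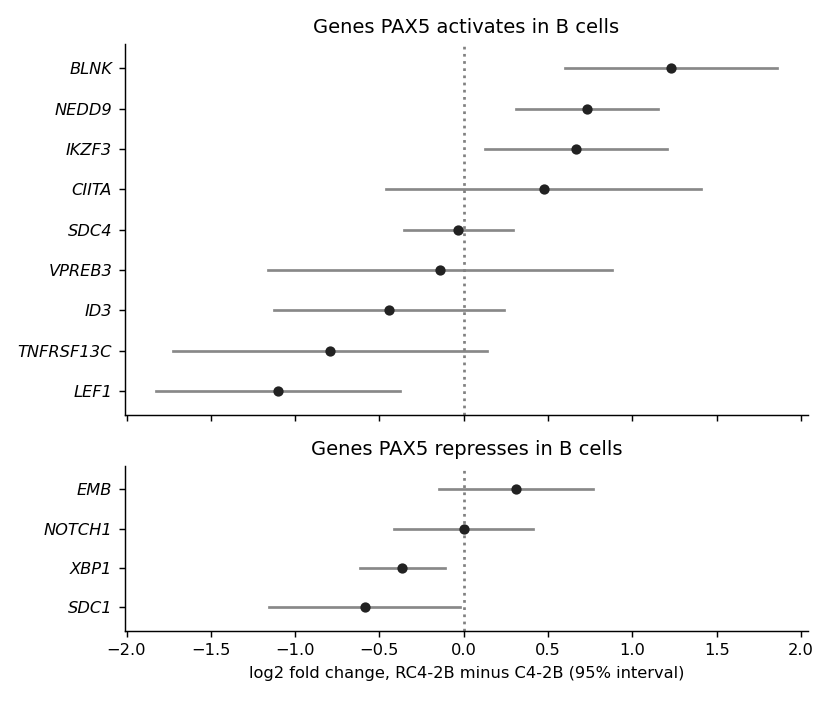
Log2 fold change (RC4-2B minus C4-2B) with its 95% interval for the tested genes of the activated list (9 of 28) and of the repressed list (4 of 11). Values lie on both sides of 0, from -1.10 for LEF1 to 1.23 for BLNK.

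Among 12 regulators of B-lineage development 8 were tested and none passed the threshold in edgeR's test. Of the 8, 3 had an unadjusted p under 0.05 (against 21.4% of all tested genes) and DESeq2 called 1 (5.93% of all genes). Without RC4-2B replicate 2 edgeR called 1, lower in RC4-2B, in a fit that called 12.5% of all genes. With all libraries their log2 fold changes lay between -1.44 and 0.43, with a median of -0.05. The value of -1.44 belonged to RUNX1, a core blood factor named here after its values were seen, at 2.95 ± 0.68 CPM (SD, n = 3) for C4-2B against 1.08 ± 0.49 CPM for RC4-2B (edgeR adjusted p = 0.0809). IKZF1, the lymphoid factor Ikaros, had no count in any library and SPI1 had at most 3. Among 13 genes of B-cell receptor signalling 8 were tested, with log2 fold changes between -0.38 and 0.55 and a median of 0.07. None passed the threshold in edgeR's test, 3 had an unadjusted p under 0.05 (against the same 21.4%) and DESeq2 called 1 (5.93% of all genes). Without RC4-2B replicate 2 edgeR called 2, both lower in RC4-2B, where 12.5% of all genes were called. The kinase BTK had at most 2 counts in a library, and PRKCB had none, while the more widely expressed LYN and GRB2 were well detected.

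To examine whether B cells or other leukocytes were present in the cultures, their markers were summed in each library. The 9 B-cell markers together stood at 2.63 to 2.96 CPM for C4-2B against 2.17 to 4.11 CPM for RC4-2B, most of it from CD37, the only tested gene of the list (log2 fold change 0.32, adjusted p = 0.516 in edgeR's test). MS4A1 and IGKC had no count in any of the 6 libraries, where the floor of 3 counts is 0.170 to 0.188 CPM. PTPRC had 3 counts in C4-2B replicate 2 alone. The 7 markers of other leukocytes summed to 0.179 to 0.455 CPM for C4-2B against 0 to 0.294 CPM for RC4-2B. CD79A and CD79B belong both to this marker list and to the activated list. CD22, too low to enter the test, had 0, 1 and 2 counts in C4-2B against 1, 3 and 5 counts in RC4-2B. Apart from CD37, every B-cell marker examined had at most 5 counts in a library, while PAX5 stood at 11.6 to 12.6 CPM in RC4-2B.

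None of the genes around PAX5 passed the threshold. Within 1 Mb of its start the tables list 47 other genes, of which 20 were tested and 19 never exceeded 3 counts. In edgeR's test 0 of the 20 were called (1.98% of all genes) and 5 had an unadjusted p under 0.05 (21.4% of all tested genes). DESeq2 called 0 (5.93% of all genes). Their log2 fold changes lay between -0.35 and 1.07 with a median of 0.09, and 13 of the 20 were above 0. The nearest tested genes upstream were EBLN3P, 45.7 kb away, at 69.2 ± 5.16 CPM (SD, n = 3) for C4-2B against 83.3 ± 11.9 CPM for RC4-2B (log2 fold change 0.27, edgeR adjusted p = 0.278), and AL512604.2, 81.3 kb away. AL512604.2, annotated as antisense RNA, had 3, 7 and 9 counts in C4-2B against 11, 12 and 16 counts in RC4-2B (log2 fold change 1.07, standard error 0.45, adjusted p = 0.224). The nearest tested gene in the direction of PAX5 transcription was the mitotic kinase MELK, at 461 kb (log2 fold change 0.14, adjusted p = 0.464 in edgeR's test). Without RC4-2B replicate 2, 1 neighbour was called, GLIPR2 at 898 kb (log2 fold change 0.54, adjusted p = 0.0125), a gene named after its value was seen, in a fit that called 12.5% of all genes.

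**Figure D4:**
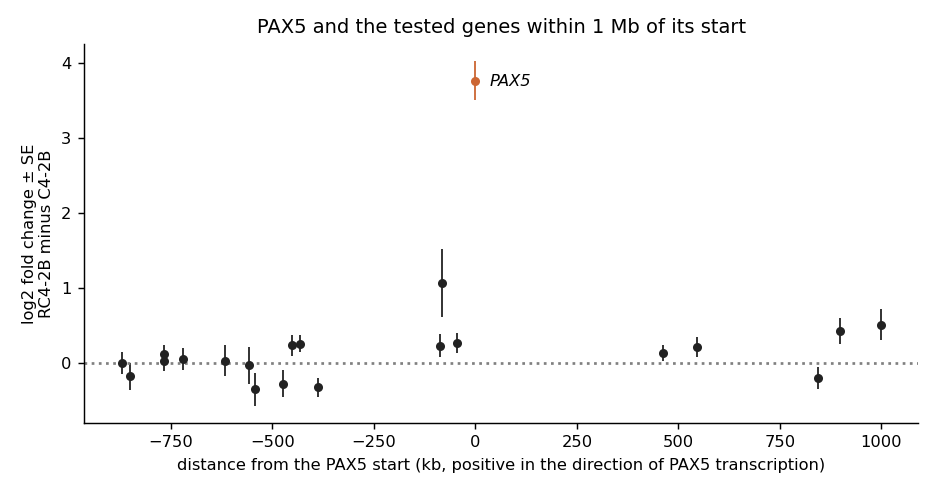
Log2 fold change (RC4-2B minus C4-2B) with its standard error for PAX5 and for the 20 tested genes within 1 Mb, against the distance of their starts from the PAX5 start in kb. PAX5 stands at 3.76 and all neighbours lie between -0.35 and 1.07.

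Finally, the genes whose pattern over the 6 libraries was most like that of PAX5 were named by the smallest Euclidean distance between profiles of log2(CPM + 0.5), each taken relative to its C4-2B mean. They were TENT5A (distance 0.98), which encodes a noncanonical poly(A) polymerase, ZNF492 (1.05), a zinc finger gene, SFRP1 (1.147), a secreted antagonist of WNT signalling, SAGE1 (1.32), a cancer-testis antigen gene, and BCHE (1.38), which encodes butyrylcholinesterase. They lie on chromosomes 6, 19, 8, X and 3, none of them on chromosome 9. TENT5A averaged 2.31 ± 0.74 CPM (SD, n = 3) for C4-2B against 26.1 ± 6.57 CPM for RC4-2B, and BCHE at 5.82 ± 3.56 and 69.9 ± 11.5 CPM. Since PAX5 was chosen on this contrast, any gene with a large rise resembles it, and these distances are a description. BLNK ranked 147 and PAX2 ranked 11647 by this distance among the 15053 other tested genes.

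**Figure D5:**
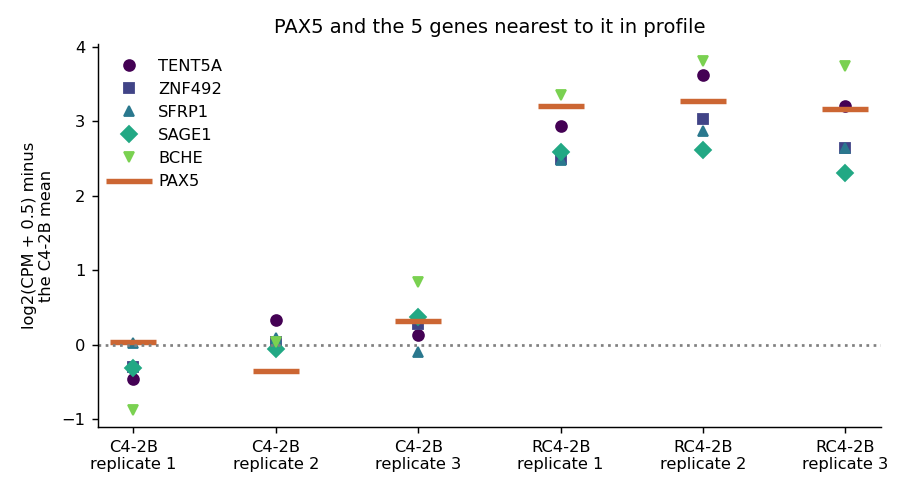
Log2(CPM + 0.5) minus the C4-2B mean in each of the 6 libraries, for PAX5 (bars) and the 5 genes nearest to it in profile (symbols). In RC4-2B, PAX5 lies at 3.16 to 3.27 in all 3 libraries.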

How the data were processed

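RNAseq libraries of 3 C4-2B and 3 RC4-2B cultures were analysed. STAR and the GRCh38 build are named for the mapping. The authors deposited raw read counts per gene as whole numbers, together with FPKM, in which a count is divided by gene length and a library total. The counting program, its strand setting and the annotation release are not given in the sources used here. The deposited counts were scaled by TMM, filtered by filterByExpr (minimum count of 10, 15054 genes kept) and compared with edgeR 4.0.16 in R 4.3.3 (glmQLFit, glmQLFTest, Benjamini-Hochberg over all tested genes, threshold 0.05). Standard errors were obtained as the size of the log2 fold change over the root of the F statistic, and 95% intervals from the t distribution with the fit's degrees of freedom. Before use the fit was run on simulated counts without a GC-dependent or outlying library. That run therefore does not cover the deviation of RC4-2B replicate 2.

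Alternatives were DESeq2 1.42.0, RLE and upper-quartile scaling, testing every gene with 1 or more counts, requiring a mean of 10 counts, a block for replicate number, a GC offset (lowess, span 0.2, on the GC content of the longest transcript in GENCODE release 44, known for 99.6% of tested genes), each library left out, and limma-trend 3.58.1 on FPKM, restricted to genes reaching an FPKM of 1 in 3 libraries and logged (log2) after adding 1 or 0.1. The genes and lists were chosen with earlier results of these data known. Named genes are the 9 members, the other PAX genes, the nearest tested neighbours and the 5 nearest profiles. Genes of the PAX5-related lists past the threshold were also to be named, and leaving PAX5 aside there were none. Any other gene was named after its values were seen. RefSeq promoter regions were available for 7 of the 9 genes. Columns of single libraries were matched through the sample descriptions. Replicates are biological by the authors' labels, and all pairs within a cell line differed by more than sampling noise (chi-square per gene of 3.38 to 65.2). Results for some genes covered by the naming rule are not reported here.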

Additional observations from a re-analysis of the deposited data

How the results depend on the processing

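The rise of PAX5 kept its direction in all 17 alternatives, a description only, since PAX5 was chosen for that rise in these libraries. Its log2 fold change was 3.52 to 4.04 with a library left out, and 1.01 and 2.80 on log2(FPKM + 1) and log2(FPKM + 0.1), where the added constant compresses the change of a low gene. That of PAX2 lay between -0.81 and -0.11 and passed the threshold in none of its 15 alternatives, and that of BLNK between 0.95 and 1.43, past the threshold in 7 of 15. The filter of the FPKM fits leaves out PAX2 and BLNK. PAX5 passes that filter through its RC4-2B libraries alone.

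With all libraries in edgeR 162 genes were higher and 136 lower. DESeq2 gave 500 and 402, no filter 604 and 646, the replicate block 55 and 74, the GC offset 657 and 490, block and GC offset 642 and 564, and limma on FPKM 46 and 58 (constant of 1) or 39 and 47 (0.1). With libraries left out the ranges were 13 to 1000 and 31 to 925, and the GC offset without RC4-2B replicate 2, added after the data were seen, gave 1037 and 1013. The cause was not tested.

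Of the 8 members other than PAX5, 1 (BLNK) was called in place of 0 with DESeq2, no filter, the GC offset, block and GC offset, and the GC offset without RC4-2B replicate 2 (range with a library left out 0 to 1). Of all genes DESeq2 called 5.93%, no filter 4.29%, the GC offset 7.62% and block and GC offset 8.01%. Without RC4-2B replicate 2 the share was 12.5%, and 13.3% with the GC offset as well. For the activated list the count of 0 became 2 with DESeq2, 3 without a filter, 2 with the GC offset, 2 with block and GC offset and 3 with the GC offset without RC4-2B replicate 2 (left out, 0 to 3). Without a filter 20 genes of this list were tested, in place of 9. Each count of 2 was of higher genes, and each count of 3 was 2 higher and 1 lower. For the repressed list it became 1 without a filter (9 tested in place of 4), 1 with the GC offset, 2 with block and GC offset and 1 with the GC offset without RC4-2B replicate 2 (left out, 0 to 2). All these were lower, except that block and GC offset called 1 higher (NOTCH1) and 1 lower. For the neighbours it was 1 with the GC offset without RC4-2B replicate 2, 0 to 1 with a library left out, and 0 in windows of 0.5 and 5 Mb.

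Same-numbered libraries correlated in their deviations at 0.39, 0.22 and -0.09, so the numbers were not taken to pair the samples. With the replicate block the log2 fold changes were 3.78 for PAX5, 1.20 for BLNK and -0.52 for PAX2. Neither BLNK nor PAX2 was called, as without the block. For CD79A, CD79B, BLK, EBF1 and BACH2, with at most 7 counts in a library, this depth resolves large differences only.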

Other observations

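Genes that work with PAX genes outside the B-cell programme were also examined. The Groucho-type corepressors TLE1 to TLE4 and the histone chaperone adaptor DAXX, known partners of PAX5, were 5 genes of which 4 were tested. None passed the threshold in edgeR's quasi-likelihood test, with log2 fold changes between -0.48 and 0.04. Of the 4, 1 had an unadjusted p under 0.05 (against 21.4% of all tested genes) and DESeq2 called 0 (5.93% of all genes). TLE4 had at most 18 counts in a library.

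Of 7 partners of PAX5 and PAX2 at the midbrain-hindbrain boundary, 3 were tested and none passed the threshold in edgeR's test. Of the 3, 1 had an unadjusted p under 0.05 (against 21.4% of all tested genes) and DESeq2 called 0 (5.93% of all genes). EN2, a homeobox gene named after its values were seen, averaged 13.9 ± 0.34 CPM (SD, n = 3) for C4-2B against 9.98 ± 2.39 CPM for RC4-2B, with a log2 fold change of -0.48 and an adjusted p of 0.202 in edgeR's test. WNT1 and OTX2 had no count in any library.

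Of 16 genes that act with PAX2 and PAX8 in kidney and thyroid, 4 were tested and none passed the threshold in edgeR's test. Of the 4, 1 had an unadjusted p under 0.05 (against 21.4% of all tested genes) and DESeq2 called 1 (5.93% of all genes). Both counts refer to WT1, a kidney and gonad factor, at 9.16 ± 0.86 CPM (SD, n = 3) for C4-2B against 5.66 ± 0.79 CPM for RC4-2B. Its libraries did not overlap between the cell lines (log2 fold change -0.69, edgeR adjusted p = 0.0919). Without RC4-2B replicate 2, 1 of the 4 was called, lower in RC4-2B, in an edgeR fit that called 12.5% of all genes.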
